A study of Mus musculus with 12 samples.

Results

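The genes described here are the nuclear genes of oxidative phosphorylation, chosen by symbol alone: every row whose name begins with Nduf, Uqc, Cox4 to Cox8 or Atp5, or is Sdha, Sdhb, Sdhc or Sdhd, with pseudogene names containing -ps left out. The rule found 107 of the 56941 genes in the deposited table, of which 50 belong to complex I, 4 to complex II, 14 to complex III, 21 to complex IV and 18 to complex V. It takes in assembly factors that share these prefixes, namely Ndufaf1 to Ndufaf8 and Uqcc1 to Uqcc6. Ndufa4 and its paralog Ndufa4l2 were placed with complex IV, where the Ndufa4 protein is found. RNA came from sheets of C2C12, mouse muscle precursor cells that fuse to form myotubes. Cells of both lines were laid on a 1 mm layer of fibrin, grown for 2 days with aminocaproic acid and fetal bovine serum, and kept for 6 days in differentiation medium with inactivated horse serum, IGF-1 and aminocaproic acid. The genotype label was ChR2::tdTomato for 6 wells, an optogenetic line that carries a light-gated cation channel and a red fluorescent protein (ChR2 below), and Wild-Type for the other 6 wells, treated in the same way. The labels name neither the promoter of the transgene nor the number of clones, and they mention no light. The replicates were plate wells seeded from a suspension of each line, and no label names independent cultures, so the p-values below measure the spread between wells only.

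Oxidative phosphorylation takes electrons from NADH at complex I and from succinate at complex II, passes them through ubiquinone to complex III and through cytochrome c to complex IV, and uses the resulting proton gradient at complex V to make ATP. All of the complexes except complex II combine subunits encoded in the nucleus with subunits encoded in mitochondrial DNA, and each needs dedicated assembly factors. In skeletal muscle and heart some complex IV subunits are made from tissue-restricted genes, among them Cox6a2, Cox7a1 and Cox8b, which replace common forms as muscle matures.

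The 2 smallest libraries were those of wild-type wells 2 and 5. They held 1061051 and 2809669 counts against 7388726 to 13628540 in the other 10. Genes whose names begin with Rn7s made up 25.9% and 8.63% of the counts in these 2 libraries against at most 0.0377% elsewhere. That prefix covers 7SL RNA and 7SK RNA, neither of which has a poly(A) tail. According to the labels, samples with little RNA were prepared by ribodepletion, without saying which. Members made up 1.32% and 1.06% of the counts in wild-type wells 2 and 5, and 1.57% to 2.24% in the other wells. Log2 fold changes between the lines are therefore given over all 12 wells and over the 10 wells without these, and a wild-type mean given over the deep wells leaves these out. A count of 3, taken as the limit of detection, was worth 0.22 to 0.412 CPM (a well's counts scaled by its library size) in the 10 deep libraries, 3.93 CPM in wild-type well 2 and 1.07 CPM in well 5.

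Upstream sequence is shown for the 4 members that passed the test in either comparison, together with Cox8b, the muscle counterpart of the called gene Cox8a. Each line gives the 150 bases before the RefSeq start on the gene's own strand, 5′ to 3′, in GRCm38.p6: Uqcc1 at chr2:155930311-155930460 (minus strand), Uqcc2 at chr17:27133892-27134041 (minus), Ndufaf4 at chr4:24897933-24898082 (plus), Cox8a at chr19:7217617-7217766 (minus) and Cox8b at chr7:140900447-140900596 (minus). Capitals mark matches to the motifs listed after the sequences.
Uqcc1: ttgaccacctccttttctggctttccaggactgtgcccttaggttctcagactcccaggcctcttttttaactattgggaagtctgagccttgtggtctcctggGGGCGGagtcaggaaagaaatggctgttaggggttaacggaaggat
Uqcc2: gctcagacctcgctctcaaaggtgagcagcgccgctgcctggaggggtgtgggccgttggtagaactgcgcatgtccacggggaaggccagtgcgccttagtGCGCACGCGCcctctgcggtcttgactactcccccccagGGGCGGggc
Ndufaf4: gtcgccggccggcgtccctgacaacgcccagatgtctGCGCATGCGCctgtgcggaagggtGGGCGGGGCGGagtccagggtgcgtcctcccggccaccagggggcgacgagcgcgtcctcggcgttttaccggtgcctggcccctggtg
Cox8a: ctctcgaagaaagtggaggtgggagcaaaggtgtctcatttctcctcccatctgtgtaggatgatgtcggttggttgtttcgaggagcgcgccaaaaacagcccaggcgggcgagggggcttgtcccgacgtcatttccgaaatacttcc
Cox8b: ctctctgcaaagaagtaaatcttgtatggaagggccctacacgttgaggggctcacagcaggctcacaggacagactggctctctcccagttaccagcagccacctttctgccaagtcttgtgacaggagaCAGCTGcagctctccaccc

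The motifs searched on both strands were GCGCA and GCGC with any 1 base between them, the site of the respiratory gene activator NRF1, CCGGAAG (ETS family), AAGGTCA (estrogen-related receptors), AAGATGGC (YY1), GGGCGG (GC box), CAGCTG (E-box of the form used by the MyoD family) and CTA and TAG with any 4 bases between them (MEF2). The NRF1 motif began 48 bases before the start of Uqcc2 and 113 bases before that of Ndufaf4, and it was not found in the stretches printed for the other 3 genes. GC boxes began 46 bases before the start of Uqcc1, 9 before that of Uqcc2, and 89 and 84 before that of Ndufaf4, where the 2 matches share 1 base. The stretch of Cox8b held an E-box 19 bases before the start, and that of Cox8a held no match. RefSeq windows of 250 bases before to 50 bases after the start were found for 79 of the 97 tested members, as 84 windows. The NRF1 motif was present in 25% of these windows against 9.76% of the 12514 windows of the other tested genes. YY1 was present in 14.3% against 4.36%, the estrogen-related receptor motif in 10.7% against 2.97% and ETS in 22.6% against 17.4%, while the GC box was present in 44.0% against 62.2%. The muscle motifs were present in 8.33% against 15.5% (E-box) and 2.38% against 3.16% (MEF2). A letter match describes the sequence and does not show that a factor binds there.

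The first question was whether the respiratory chain messages differed between the lines. Of the 107 members, 97 had enough counts to be tested, and 3 of these passed an adjusted p of 0.05 over 12 wells by edgeR's quasi-likelihood test, which is 3.09%. Over all 13168 genes tested, 28.1% passed. Uqcc2 and Cox8a were higher in ChR2, where 14.0% of all genes were called higher, and Uqcc1 was lower, where 14.1% were. Over 10 wells 3 of 97 members passed again (3.09%, against 35.2% of 13484 genes): Cox8a was higher (18.9% of all genes) and Uqcc1 and Ndufaf4 were lower (16.3%). At an unadjusted p under 0.05 there were 7 of 97 members over 12 wells and 7 over 10 wells, against 5293 of 13168 and 6145 of 13484 genes. Over 12 wells limma voom with quality weights called 4 members higher (21.1% of all genes) and 1 lower (20.0%), 41.1% of genes in all; Ndufb4b and Ndufv3 joined the same 3 members there. A replicate block in edgeR called the same 3 members (20.1% of genes, 11.2% higher and 8.89% lower). With no filter on low counts edgeR called Uqcc1 alone among members (11.5% of genes, 5.91% higher and 5.64% lower).

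Most members sat near 0 on the log2 fold scale, where positive values are higher in ChR2. The median log2 fold change over 12 wells was 0.07 for complex I, 0.03 for complex II, 0.13 for complex III, 0.18 for complex IV and 0.17 for complex V, against -0.02 over all genes tested. Over 10 wells the medians were -0.01, -0.03, -0.01, 0.04 and 0.00 in the same order, against 0.00 over all genes. The median standard error of a member was 0.21 over 12 wells and 0.15 over 10 wells. The 95% interval of the difference lay within 1.5-fold either way for 42 of 97 members over 12 wells (43.3%, against 34.9% of all genes) and for 81 of 97 over 10 wells (83.5%, against 47.3%). It lay within 2-fold for 76 of 97 members over 12 wells (78.4%, against 72.0%) and for 96 of 97 over 10 wells (99.0%, against 76.2%), where the exception was Ndufb4b. For these members the data bound the difference to less than those folds and do not show that the lines are equal.

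**Figure D1:**
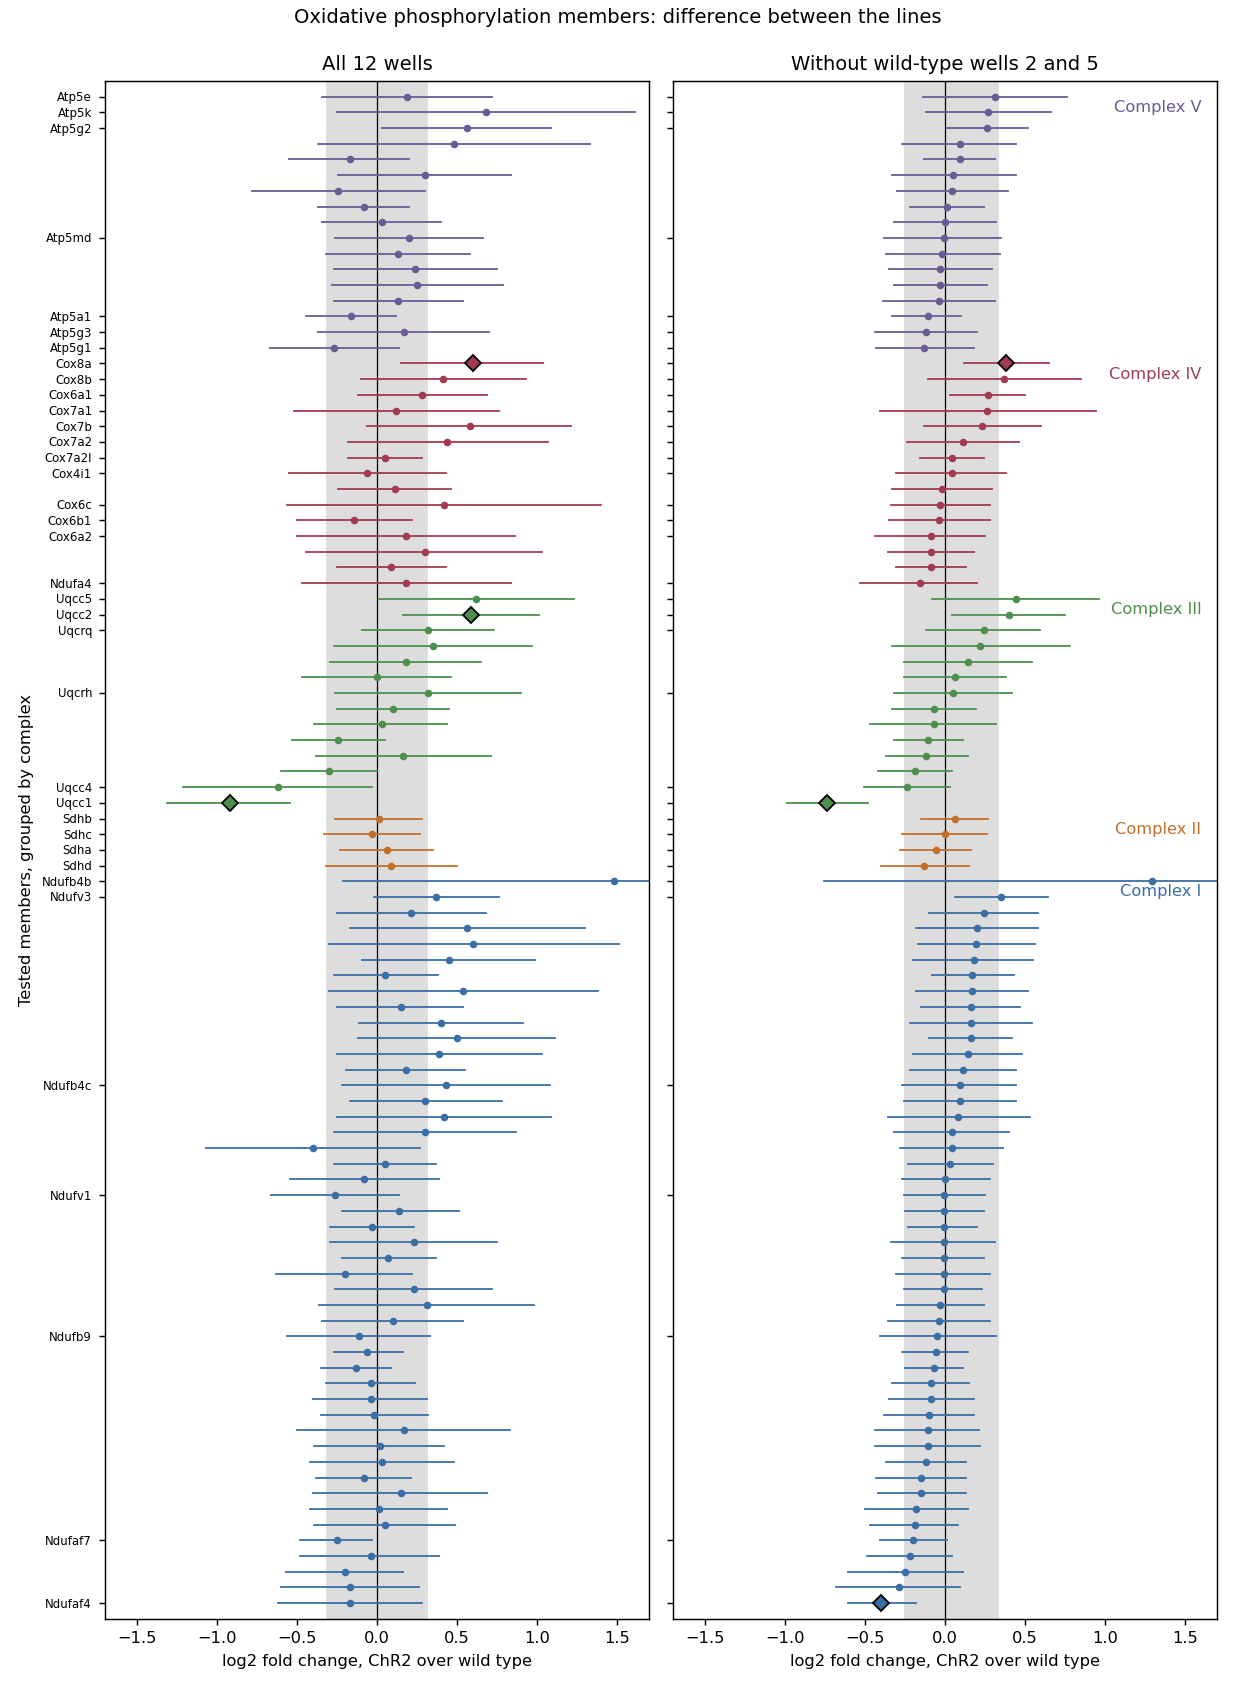
Difference between the lines for each of the 97 tested members (log2 fold change, ChR2 over wild type, with its 95% interval), over all 12 wells at left and without wild-type wells 2 and 5 at right; diamonds mark an edgeR adjusted p under 0.05, the grey band spans the middle 50% of all tested genes, intervals are clipped at the plot's edges, and names are given for the members picked by the naming rule or called. Most intervals narrow from left to right, with Ndufb4b and Cox7a1 among the exceptions. At right only Cox8a, Uqcc1 and Ndufaf4 are marked.

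Of the 4 members called in either comparison, Uqcc1, Uqcc2 and Ndufaf4 are assembly factors and Cox8a is a subunit. Among the 14 assembly factors of complexes I and III, 2 were called over 12 wells and 2 over 10 wells, 14.3% in each, below the 28.1% and 35.2% of all genes. Among the 83 other tested members, 1 was called in each comparison (1.20%). This division by role was made after the values were seen, and the difference between the 2 groups was not tested. The 6 wells of one line did not overlap those of the other for 1 of 97 members, Uqcc1, against 15.1% of all genes, and over 10 wells for 2 members, Uqcc1 and Ndufaf4, against 24.5%.

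Complex I oxidises NADH. None of its 47 tested members passed the test over 12 wells, where the smallest edgeR adjusted p was 0.087, for Ndufaf7, and 1 passed over 10 wells, Ndufaf4. That is 0% and 2.13%, against 28.1% and 35.2% of all genes. The 7 core subunits that carry the redox centres had log2 fold changes between -0.26 and 0.14 over 12 wells and a median of -0.01 over 10 wells, and the 95% interval of each lay within 1.5-fold over 10 wells. Of the 30 accessory subunits, 29 had such an interval over 10 wells (96.7%, against 47.3% of all genes). The median difference of the accessory subunits was 0.20 over 12 wells and 0.02 over 10. The 8 Ndufaf assembly factors had a median of -0.13 over 12 wells and -0.21 over 10, where 7 of 8 were below 0.

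Ndufaf4 (ENSMUSG00000028261), which acts early in complex I assembly, falls outside the rule for named genes and was chosen after its values were seen. Its level in the ChR2 wells ran from 32.6 through a median of 35.8 to 40.1 CPM. The wild-type wells held 53.7 (well 1), 42.9 (well 3), 42.6 (well 4) and 53.0 CPM (well 6), and only 14.4 in well 2 and 22.8 in well 5. All 4 deep wild-type wells thus lay above all ChR2 wells, and the shallow wells lay below them. Over 10 wells Ndufaf4 was lower in ChR2 by a log2 fold change of -0.40 (SE 0.10, edgeR adjusted p = 0.00743), and over 12 wells the value was -0.17 (SE 0.21, adjusted p = 0.592).

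Ndufv3, an accessory subunit of the NADH-oxidising module, had the smallest p of the higher complex I members. It measured 118 ± 17.6 CPM in ChR2 (SD, n = 6 wells) and 93.3 ± 16.2 in the 4 deep wild-type wells (SD, n = 4), and the lines overlapped. Its log2 fold change was 0.37 over 12 wells (edgeR adjusted p = 0.146) and 0.35 over 10 wells (0.06 to 0.64, adjusted p = 0.0546). Ndufaf7, a mitochondrial methyltransferase needed for complex I assembly, measured 21.9 ± 1.30 against 25.4 ± 2.83 CPM in the deep wild-type wells, a log2 fold change of -0.25 over 12 wells and -0.20 over 10 (adjusted p = 0.135). Ndufv1, which holds the NADH-binding site, measured 148 ± 13.1 against 150 ± 27.3 CPM, but 313 CPM in wild-type well 2, with differences of -0.26 over 12 wells and -0.01 over 10. Ndufb9, an accessory subunit and the most abundant complex I message per length, stood at 1083 ± 153 TPM (the authors' level per transcript length) in ChR2 and 1202 ± 141 TPM in the deep wild-type wells. Its log2 fold change was -0.11 over 12 wells and -0.05 over 10. Fold changes come from the scaled counts and need not follow the TPM. Ndufb4c, an annotated copy of Ndufb4, was given 1004 ± 124 and 1016 ± 154 TPM (0.43 over 12 wells and 0.09 over 10). Reads of near-identical copies can be divided between Ndufb4, Ndufb4b and Ndufb4c, so the level of each is uncertain; Ndufb4b had the widest interval of all members (log2 -0.76 to 3.33 over 10 wells) and no counts in 4 of the 6 wild-type wells.

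Complex II, succinate dehydrogenase, also serves the citric acid cycle and is encoded wholly in the nucleus. None of its 4 subunits passed the test, and the interval of each lay within 1.5-fold in both comparisons. Of all genes, 28.1% passed over 12 wells and 35.2% over 10, and 34.9% and 47.3% had such an interval. Sdha, the flavoprotein, ranged from 164.9 through 187.5 (median) to 214.5 CPM in ChR2 and from 163.6 to 224.9 in the deep wild-type wells, a log2 fold change of 0.06 over 12 wells and -0.06 over 10 (-0.28 to 0.16). Sdhb, the iron-sulphur subunit, ranged from 106.3 through 115.5 to 123.0 CPM against 96.14 to 131.1, a difference of 0.01 over 12 wells and 0.06 over 10 (-0.15 to 0.27). Sdhc and Sdhd, which anchor the enzyme in the membrane, differed by -0.03 and 0.09 over 12 wells and by 0.00 (-0.27 to 0.26) and -0.13 (-0.40 to 0.15) over 10. The lines overlapped for all 4 subunits, and edgeR adjusted p over 10 wells was 0.469 or more.

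Complex III passes electrons from ubiquinol to cytochrome c. Its 8 tested subunits had log2 fold changes between -0.30 and 0.32 over 12 wells and between -0.19 and 0.24 over 10 wells, and none passed the test. The 6 Uqcc assembly factors spread more widely, from -0.92 to 0.62 over 12 wells, and held both called genes of the complex. Calls made up 14.3% of its 14 tested members over 12 wells and 7.14% over 10, against 28.1% and 35.2% of all genes.

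Uqcc1 (ENSMUSG00000005882) works with Uqcc2 in the early steps of complex III assembly, around newly made cytochrome b. Its level ran from 49.6 through a median of 59.1 to 71.6 CPM in ChR2. In the wild type it was 118 (well 1), 193 (well 2), 106 (well 3), 92.9 (well 4), 94.6 (well 5) and 80.7 CPM (well 6). Every wild-type well lay above every ChR2 well, including those with few counts. Uqcc1 was lower in ChR2, with a log2 fold change of -0.92 over 12 wells (SE 0.18, a ratio of 0.527, edgeR adjusted p = 0.00215) and -0.74 over 10 wells (SE 0.12, a ratio of 0.599, adjusted p = 0.000475). It was called lower in all 33 settings tried. Ndufaf4, described above, was called lower in every setting that left out both wild-type wells 2 and 5 and in none of the others.

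Uqcc2 (ENSMUSG00000024208), its partner, lay the other way. In ChR2 its level ran from 175.5 through a median of 243 to 285 CPM, and the wild-type wells held 152 (well 1), 118 (well 2), 152 (well 3), 177 (well 4), 88.1 (well 5) and 229 CPM (well 6). Wild-type wells 4 and 6 overlapped the ChR2 wells, and wells 2 and 5 were the lowest. Uqcc2 was higher in ChR2 over 12 wells (0.59, SE 0.20, edgeR adjusted p = 0.0401), while over 10 wells the difference was 0.40 (0.04 to 0.75, adjusted p = 0.0749). The call was also lost when ChR2 well 2, 4, 5 or 6 or wild-type well 1, 2, 3 or 5 was left out of the 12, with edgeR adjusted p between 0.0586 and 0.0922. Per length Uqcc2 stood at 961.9 ± 117 TPM in ChR2, far above Uqcc1 at 55.3 ± 6.09 TPM.

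**Figure D2:**
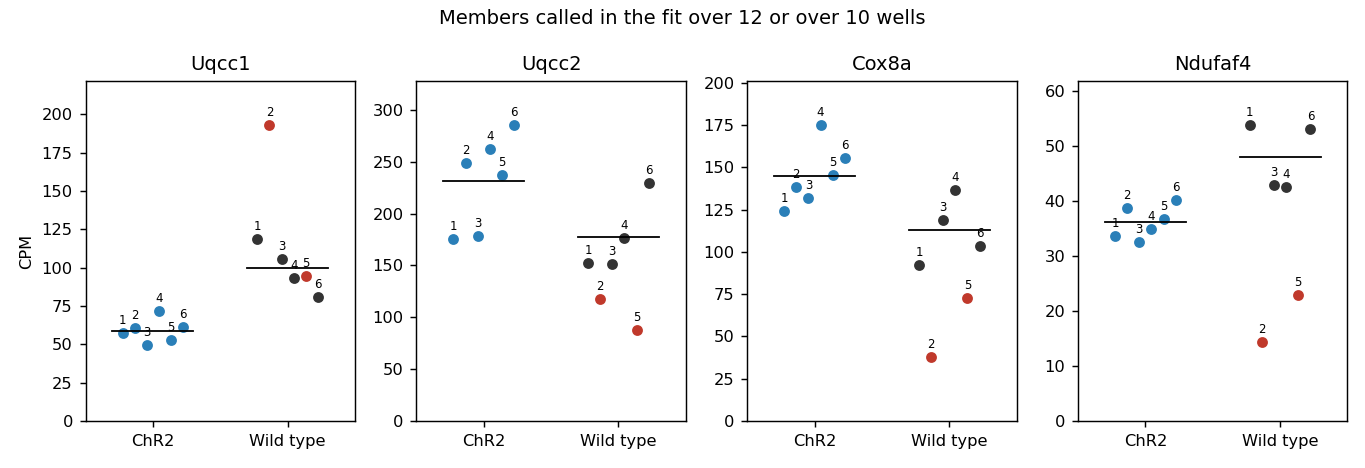
CPM in each well of the 4 members called over 12 or over 10 wells, with ChR2 in blue, wild type in black and wild-type wells 2 and 5 in red; digits are well numbers and lines are means without wild-type wells 2 and 5. Only Uqcc1 separates the lines in all 12 wells, with ChR2 at 49.6 to 71.6 CPM and wild type at 80.7 to 193 CPM.

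The other complex III members named by rule did not pass the test. Uqcc5, a small assembly protein, measured 8.68 ± 2.33 CPM in ChR2 and 6.42 ± 2.05 in the deep wild-type wells (0.62 over 12 wells and 0.44 over 10, edgeR adjusted p = 0.118 and 0.176). Uqcc4 measured 37.6 ± 6.60 and 44.9 ± 3.66 CPM, with 152 CPM in wild-type well 2, and its log2 fold change went from -0.62 over 12 wells to -0.24 over 10 (adjusted p = 0.153). Uqcrh, the hinge protein that holds cytochrome c1, was the most abundant complex III message per length. It stood at 1646 ± 227 TPM in ChR2 and 1724 ± 212 TPM in the deep wild-type wells. Its log2 fold change from counts lay the other way, at 0.32 over 12 wells and 0.05 over 10 (-0.32 to 0.42). Uqcrq followed at 1402 ± 154 and 1262 ± 211 TPM (0.32 over 12 wells and 0.24 over 10). Uqcrfs1, the Rieske iron-sulphur protein, which like Atp5b below is outside that rule and was chosen after its values were seen, differed by -0.30 over 12 wells and -0.19 (-0.42 to 0.04) over 10.

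Complex IV, cytochrome c oxidase, reduces oxygen. Of its 15 tested members Cox8a alone passed, in both comparisons, which is 6.67% against 28.1% and 35.2% of all genes. Cox8a (ENSMUSG00000035885) is the common form of the smallest subunit. It ran from 124.5 through a median of 142 to 175 CPM in ChR2, and in the wild type it was 92.0 (well 1), 38.0 (well 2), 119 (well 3), 136.5 (well 4), 72.8 (well 5) and 103 CPM (well 6). Wild-type well 4 lay within the ChR2 range and the other 5 below it. Cox8a was higher in ChR2 by 0.60 over 12 wells (SE 0.21, edgeR adjusted p = 0.0452) and by 0.38 over 10 wells (SE 0.12, adjusted p = 0.0261), 1.30-fold in the latter. The call over 12 wells was lost when any one ChR2 well or wild-type well 1, 5 or 6 was left out, with edgeR adjusted p between 0.0501 and 0.0991. Over 10 wells it was lost without ChR2 well 4 or 6 or wild-type well 1, 3 or 6, with edgeR adjusted p between 0.0503 and 0.0905.

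Other common complex IV subunits were less separated. Cox6a1 measured 106 ± 15.9 CPM in ChR2 and 89.2 ± 5.69 in the deep wild-type wells (0.28 over 12 wells and 0.27 over 10, 0.03 to 0.50 in the latter, edgeR adjusted p = 0.286 and 0.0702). Cox7b measured 512 ± 102 and 440.3 ± 94.1 CPM (0.58 over 12 wells and 0.23 over 10, -0.13 to 0.60 in the latter). Cox4i1, whose protein is the regulatory subunit that binds ATP, measured 552.5 ± 118 and 544.1 ± 85.1 CPM (-0.06 and 0.04, -0.31 to 0.38), and Cox6b1 286 ± 51.4 and 297 ± 52.2 CPM (-0.14 and -0.04). The most abundant complex IV messages per length were Cox6c, at 1482 ± 139 TPM in ChR2 and 1624 ± 151 TPM in the deep wild-type wells, and Ndufa4, at 1420 ± 221 and 1721 ± 233 TPM. The log2 fold change of Cox6c was 0.42 over 12 wells and -0.03 over 10. That of Ndufa4 was 0.18 over 12 wells and -0.16 over 10. Cox7a2l, which links complexes III and IV into supercomplexes, varied little, at 151 ± 15.1 and 148 ± 10.3 CPM (0.05 and 0.04, -0.16 to 0.24).

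The muscle forms of complex IV were present in both lines and none passed the test. Cox6a2 ran from 62.8 through 75.3 (median) to 92.1 CPM in ChR2 and from 59.2 to 101.5 in the deep wild-type wells (0.18 over 12 wells and -0.09 over 10, -0.44 to 0.25 in the latter). Cox7a1 ran from 19.7 through 33.6 to 55.4 CPM against 20.3 to 45.8 (0.12 and 0.26, -0.41 to 0.94). Cox8b ran from 40.0 through 54.7 to 75.9 CPM against 30.8 to 57.9 (0.41 and 0.37, -0.11 to 0.85, edgeR adjusted p = 0.217 and 0.208). The ranges of the lines overlapped for all 3.

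Per length, each muscle form was below its common form in nearly every deep well. Cox8b over Cox8a in TPM was 0.775 ± 0.132 in ChR2 (SD, n = 6) and 0.801 ± 0.238 in the deep wild-type wells (SD, n = 4), where well 6 alone exceeded 1, at 1.16. Cox6a2 over Cox6a1 was 0.567 ± 0.0782 and 0.720 ± 0.176, and Cox7a1 over Cox7a2 was 0.352 ± 0.0685 and 0.316 ± 0.0618. As shares of each isoform pair, Cox8b made up 43.4% of TPM in ChR2 and 43.8% in the deep wild-type wells, Cox6a2 36.0% and 41.4%, and Cox7a1 25.9% and 23.9%. Wild-type well 2 departed from these, at 3.34 for Cox8b over Cox8a and 2.49 for Cox7a1 over Cox7a2. With all 6 wild-type wells the wild-type means were 1.18 ± 1.08 for Cox8b over Cox8a, 0.572 ± 0.268 for Cox6a2 over Cox6a1 and 0.742 ± 0.872 for Cox7a1 over Cox7a2. The smallest count behind these values in any well was 35 for Cox6a2, 54 for Cox7a1 and 48 for Cox8b. Ratios within a well do not depend on library scaling, and they are given without a test.

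**Figure D3:**
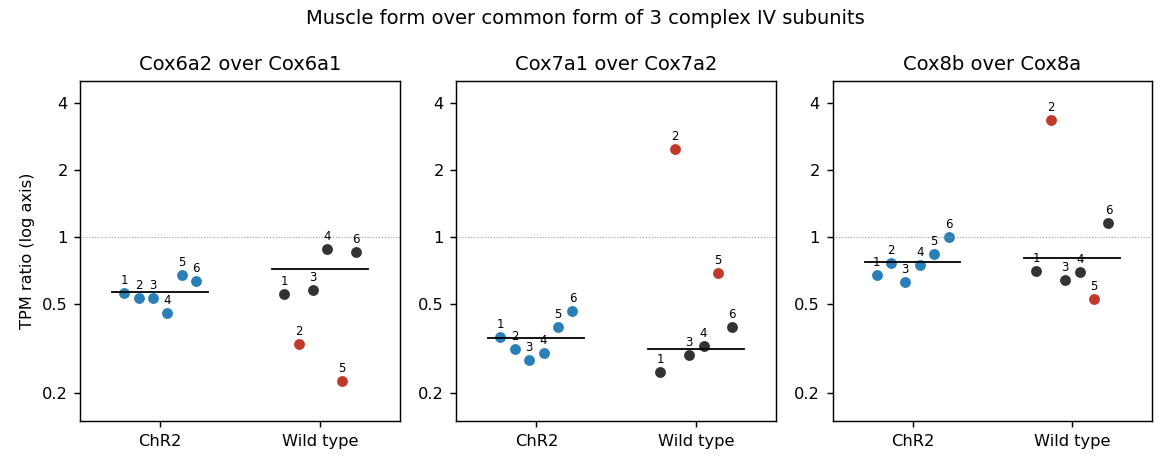
Ratio of TPM of the muscle form to the common form in each well, on a log axis, for 3 complex IV subunits; ChR2 is blue, wild type black, wild-type wells 2 and 5 red, and lines are means without those wells. The lines of the study overlap in all 3 panels, and wild-type well 2 stands at 2.49 and 3.34 in the middle and right panels.

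Other tissue forms were at or near the limit of detection. Cox4i2, known from lung, had 3 counts over all 12 libraries, the testis forms Cox6b2, Cox7b2 and Cox8c had 2, 1 and 0, and Ndufa4l2, known as a hypoxia-induced relative of Ndufa4, had 79, or 0 to 1.65 CPM per well. The other untested members were the gene copies Ndufa11b, Ndufb11b, Ndufs6b and Cox6c2 and the second of the 2 rows named Atp5o, each with at most 6 counts in all. They are counted among the 107 members and enter no comparison.

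Complex V, ATP synthase, carries some of its older symbols in the table. None of its 17 tested members passed the test in either comparison, against 28.1% of all genes over 12 wells and 35.2% over 10. The catalytic head subunits Atp5a1 and Atp5b measured 674 ± 48.0 and 1679 ± 108 CPM in ChR2 against 738.5 ± 75.2 and 1687 ± 158 in the deep wild-type wells, with log2 fold changes of -0.16 and -0.08 over 12 wells and of -0.11 (-0.33 to 0.10) and 0.01 (-0.22 to 0.24) over 10. Across the 5 head and stalk subunits the differences reached from -0.17 to 0.25 over 12 wells and from -0.11 to 0.31 over 10, the last for Atp5e, which measured 373 ± 95.3 and 304 ± 68.2 CPM. The most abundant message per length among all members was Atp5md, the small membrane subunit also called DAPIT. It stood at 2662 ± 356 TPM in ChR2 and 2909 ± 426 TPM in the deep wild-type wells, with log2 fold changes of 0.20 over 12 wells and -0.01 over 10. Atp5k, subunit e of the membrane part, measured 140 ± 28.0 and 117 ± 29.1 CPM, and only 23.6 and 10.7 CPM in wild-type wells 2 and 5, with differences of 0.68 over 12 wells and 0.27 over 10.

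Atp5g1, Atp5g2 and Atp5g3 encode the same mature c subunit of the rotor ring with different import sequences. Atp5g3 was the most abundant of them at 1227 ± 102 TPM in ChR2 and 1428 ± 180 TPM in the deep wild-type wells. Its log2 fold change was 0.17 over 12 wells and -0.12 over 10. Atp5g2 ran from 173.7 through 193.8 (median) to 240 CPM in ChR2 against 134.1 to 183.6 in the deep wild-type wells and 53.7 and 71.7 in wells 2 and 5, a log2 fold change of 0.56 over 12 wells (edgeR adjusted p = 0.105) and 0.26 over 10 wells (0.01 to 0.52, adjusted p = 0.102). The ratio of Atp5g2 to Atp5g3 in TPM was 0.385 ± 0.0301 in ChR2 and 0.297 ± 0.0416 in the deep wild-type wells, whose ranges did not overlap, although wild-type well 5, at 0.375, lay within the ChR2 range. No other isoform ratio examined was free of overlap over 10 wells. In CPM, 24.5% of all genes did not overlap over 10 wells, and no such share was computed for ratios. The ratio of Atp5g1 to Atp5g3 was 0.336 ± 0.0146 and 0.341 ± 0.0131, with 1.20 in wild-type well 2 and 0.785 in well 5, which bring the mean of all 6 wild-type wells to 0.558 ± 0.362. Atpif1, the inhibitor of ATP synthase, which the symbol rule does not take in, measured 118 ± 20.8 and 99.6 ± 9.20 CPM (0.35 over 12 wells and 0.26 over 10, edgeR adjusted p = 0.155 and 0.123).

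Summed over the members of a complex, the lines differed by less than the spread between wells. Complex I summed to 4991 ± 769 CPM in ChR2 (SD, n = 6) and 4989 ± 756 in the deep wild-type wells (SD, n = 4). Complex II summed to 694 ± 70.7 and 725.2 ± 83.9, complex III to 2243 ± 376 and 2225 ± 329, complex IV to 3576 ± 637 and 3531 ± 534, and complex V to 7020 ± 925 and 7059 ± 1040. With all 6 wild-type wells the wild-type means were 4587 ± 1110, 676.2 ± 109, 2093 ± 490, 3080 ± 900 and 6737 ± 1330 in the same order. Wild-type well 5 was the lowest of all 12 wells for every complex, at 2676 CPM for complex I and 1564 for complex IV. Wild-type well 2 lay within the range of the other wells for each complex.

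**Figure D4:**
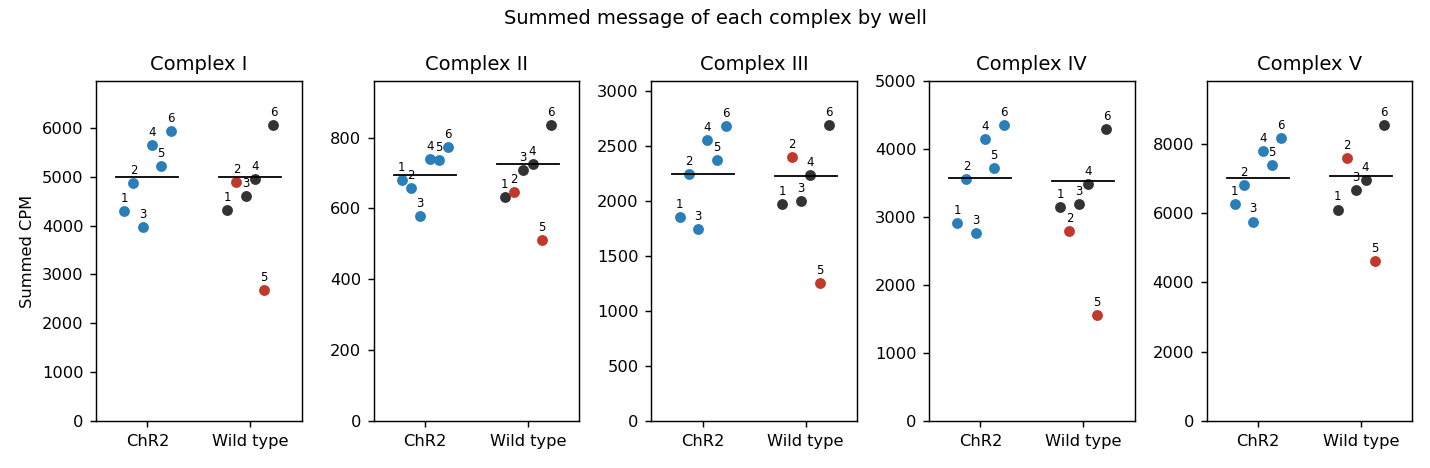
Summed CPM of the members of each complex in each well, with ChR2 in blue, wild type in black and wild-type wells 2 and 5 in red; digits are well numbers, lines are means without wild-type wells 2 and 5, and each axis starts at 0. The lines overlap for all 5 complexes, and wells of one line differ from each other more than the means of the lines do.

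Members moved together from well to well within each line. In ChR2, well 6 gave the highest value for 65 of 97 members and well 4 for 27, and well 3 gave the lowest for 74. Among the 4 deep wild-type wells, well 6 was highest for 82 of 97 and well 1 lowest for 61. Such counts were not made for other genes, so they are not shown to be particular to the members. The median coefficient of variation of a member was 17% in ChR2 and 17% in the deep wild-type wells, against 11.7% and 16.2% over all genes tested, and 37.4% with all 6 wild-type wells, against 29.6%. Members are mostly short messages: the median effective length was 0.203 of that of all tested genes, and 61 of 97 were below 0.25, against 5.54% of all tested genes.

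The wells' deviations differed with length in some wells and not in others. Relative to the mean of the 10 deep wells, the median log2 deviation of the 61 short members ran from -0.35 (ChR2 well 3) to 0.31 (ChR2 well 6) in ChR2 and was -0.65 in wild-type well 2 and -1.27 in wild-type well 5. The 668 other tested genes of the same length class ran with them, at -0.15, 0.26, -0.78 and -0.98 in these wells. The 18 members at or above 0.5 of the median length deviated by 0.34 in wild-type well 2 and -0.08 in well 5, apart from the short members. In ChR2 well 3, however, these long members stood at -0.28, close to the short ones, while other short genes stood at -0.15. In wild-type well 6, the highest deep wild-type well for most members, short members stood at 0.32 and long members at 0.23, while other short genes stood at 0.05. Wild-type well 5 gave the lowest of 12 values for 61 of 97 members. Wild-type well 2 gave the highest for 28 and the lowest for 15. These counts, too, were made for members only.

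**Figure D5:**
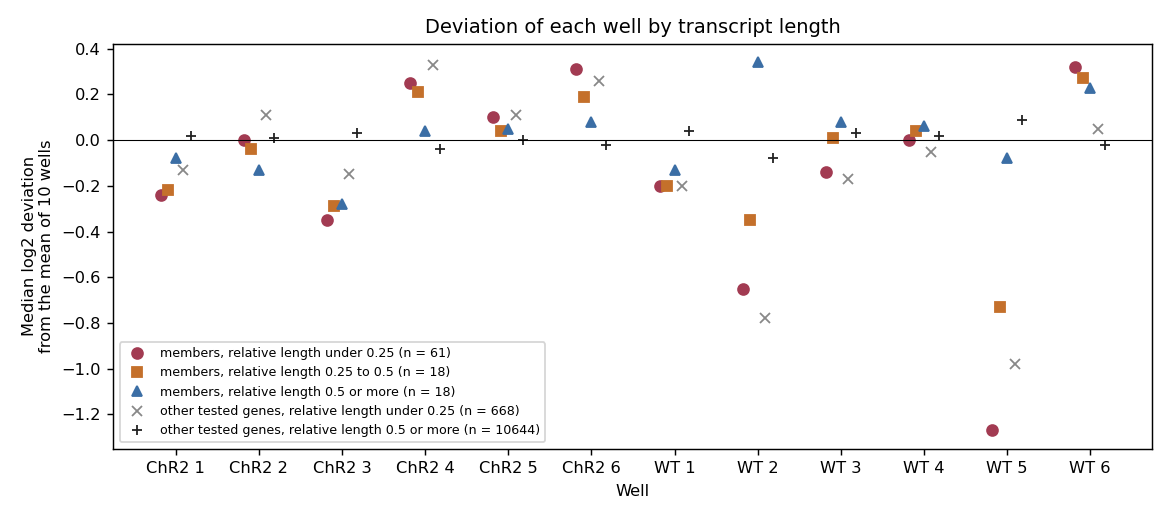
Median log2 deviation of each well from the mean of the 10 wells other than wild-type wells 2 and 5, for members and other tested genes grouped by effective length relative to the median tested gene. Short members and other short genes are both lowest in wild-type well 5, at -1.27 and -0.98, while in wild-type well 6 short and long members are raised, at 0.32 and 0.23, and other short genes stand at 0.05.

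A per-well correction for the trend of all genes with length changed which members were called. With it, 7 of 97 members passed over 12 wells (7.22%, against 30.2% of all genes), all lower in ChR2 (16.0% of all genes): Atp5g1, Atp5md, Cox6b1, Cox7c, Ndufaf8, Ndufc1 and Uqcc1. Over 10 wells 19 of 97 passed (19.6%, against 39.4%), again all lower (20.3% of all genes), among them Ndufaf4, Uqcc1, Ndufa4, Cox5a, Cox5b, Cox6c and Atp5g3. The medians by complex over 10 wells were then -0.10, -0.05, -0.13, -0.08 and -0.10 for complexes I to V. Cox8a and Uqcc2 did not pass with the correction: Cox8a stood at 0.24 over 12 wells and 0.21 over 10 (edgeR adjusted p = 0.24 and 0.112) and Uqcc2 at 0.17 and 0.21 (adjusted p = 0.194 and 0.0758). Over 12 wells the medians were -0.10, -0.02, -0.15, -0.08 and -0.12, so that their sign turned for all 5 complexes against the values without the correction.

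Genes that build or feed the chain without carrying its prefixes were read from lists. Of 24 tested complex IV assembly genes, 1 was higher and 2 were lower over 12 wells, and 2 were higher and 2 lower over 10, which is 12.5% and 16.7% called against 28.1% and 35.2% of all genes. Higd1a, a hypoxia-inducible protein that binds complex IV, measured 260.5 ± 39.1 CPM in ChR2 and 173.3 ± 29.3 in the deep wild-type wells (0.96 over 12 wells and 0.60 over 10, edgeR adjusted p = 0.0485 and 0.00347). Taco1, an activator of translation of mitochondrial Co1, was lower, at 20.8 ± 1.76 against 26.7 ± 1.47 CPM (-0.33 and -0.34, edgeR adjusted p = 0.0256 and 0.0125). Sco2, a copper chaperone, was called lower over 12 wells only (-0.64, adjusted p = 0.0465, against -0.33 and 0.127 over 10). Over 10 wells Cox18 was higher (0.40, with 0.32 over 12) and Cox19 lower (-0.43, with -0.33 over 12).

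Among 10 complex I assembly genes outside the prefix, Timmdc1 was lower in both comparisons (-0.36 over 12 wells and -0.27 over 10, edgeR adjusted p = 0.0241 and 0.0311). That is 10% of the list in each, against 28.1% and 35.2% of all genes (14.1% and 16.3% called lower). Among 4 complex III genes, including cytochrome c1 (Cyc1), Ttc19 was lower over 10 wells (-0.29, edgeR adjusted p = 0.0211) and stood at -0.17 over 12. It made up 25% of this short list, against 35.2% of all genes over 10 wells (16.3% called lower). None of 4 complex II and 4 complex V assembly genes passed. Of 21 genes of electron carriers and ubiquinone synthesis none passed over 12 wells, and 4 had an unadjusted p under 0.05, against 5293 of 13168 genes. Over 10 wells Etfdh (-0.27) and Coq10b (-0.41) were lower, with -0.26 and -0.34 over 12. They made up 9.52% of the list, against 35.2% of all genes over 10 wells (16.3% called lower). The 13 messages encoded in mitochondrial DNA did not pass in either comparison, with none at an unadjusted p under 0.05 and a median standard error of 0.69 over 12 wells. Their sum ranged from 6796 to 24540 CPM in ChR2 and from 12090 to 40210 CPM in the deep wild-type wells, and was 1172 and 2111 CPM in wild-type wells 2 and 5.

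Of 18 genes of the citric acid cycle and pyruvate dehydrogenase, 2 were higher and 1 was lower over 12 wells, and 2 were higher and 3 lower over 10, which is 16.7% and 27.8% called, below the 28.1% and 35.2% of all genes. Suclg2, of the GTP-forming succinyl-CoA ligase, measured 27.9 ± 1.94 CPM in ChR2 and 14.6 ± 3.09 in the deep wild-type wells (0.97 over 12 wells and 0.95 over 10, edgeR adjusted p = 0.00032 and 0.000171). Idh2, the NADP-dependent isocitrate dehydrogenase, measured 101 ± 8.87 and 60.5 ± 14.7 CPM (0.72 and 0.75, edgeR adjusted p = 0.00177 and 0.00148). Pdhx, of the pyruvate dehydrogenase complex, was lower (-0.56 and -0.48, edgeR adjusted p = 0.00294 and 0.00349). Of 13 regulators of mitochondrial biogenesis, 3 were called in each comparison, 23.1% and also below all genes. Esrrg was higher, at 2.22 ± 0.701 CPM in ChR2 and 0.734 ± 0.653 in the deep wild-type wells (1.72 over 12 wells and 1.57 over 10, edgeR adjusted p = 0.0274 and 0.0356). It had 174 counts in all and 0 in 3 wells, so its wild-type level was near the limit of detection. That limit was 3.93 and 1.07 CPM in wild-type wells 2 and 5, above the mean of the deep wild-type wells. The coactivator Ppargc1b (-1.14 and -0.75, edgeR adjusted p = 0.00486 and 0.00242) and the mitochondrial transcription factor Tfb2m (-0.41 and -0.48, edgeR adjusted p = 0.0241 and 0.0022) were lower. Nrf1 (0.04 and 0.15) and Ppargc1a (0.15 and -0.07) did not pass.

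Cell type markers were read beside these results. The RNA came from sheets of C2C12 cells, so the level of a fibroblast marker does not by itself show that fibroblasts were present. Myotube markers were present in all wells. Of 11 tested, 3 were lower in ChR2 over 12 wells and 3 over 10, and none was called higher. That is 27.3%, against 14.1% and 16.3% of all genes called lower and 28.1% and 35.2% called in either direction. Myog, an early regulator of muscle differentiation, stood at 542.1 ± 64.0 CPM in ChR2 and 872.2 ± 174 in the deep wild-type wells (-0.84 over 12 wells and -0.67 over 10, edgeR adjusted p = 0.00219 and 0.00192). Ttn was also lower in both (-2 and -0.79, edgeR adjusted p = 0.00601 and 0.00386). Other markers lay the other way without passing, 5 of 11 being above 0 over 12 wells and 3 over 10. Among these were Myh3 (0.58 and 0.45) and Ckm (0.5 and 0.47). Of 11 fibroblast markers 9 were tested and 6 were higher in ChR2 in each comparison. That is 66.7%, against 14.0% and 18.9% of all genes called higher. The 6 included Dpt (2.58 over 12 wells and 2.41 over 10, edgeR adjusted p = 0.000151 and 0.00012) and Mfap5 (1.61 and 1.45, edgeR adjusted p = 0.000584 and 0.000318), both of the extracellular matrix. The tested markers that did not pass were Dcn (0.62 and 0.38), Col1a1 (-0.19 and 0.23) and Pdgfra (-0.27 and -0.01). The summed level of the list was 3858 to 4632 CPM in ChR2 and 994.1 to 3723 CPM in the deep wild-type wells, with 4286 and 2659 CPM in wild-type wells 2 and 5, and totals over the 12 libraries ranged from 2 counts (Thy1) and 10 (Lum), the untested ones, to 207843 (Col3a1). No adipocyte or endothelial marker could be tested, with Ucp1 and Emcn at 0 counts and at most 28 counts in all for any of them. Of 6 macrophage markers Cd68 and Cd14 were tested, with 530 and 376 counts in all, and neither passed (-0.39 and -0.52 over 12 wells, -0.53 and -0.36 over 10). The other macrophage markers had 21 counts or fewer, with 1 each for Adgre1 and Ptprc. In bulk RNA, fewer cells of a type and less RNA per cell cannot be told apart, and the part of these marker differences in the member differences was not tested.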

How the data were processed

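RNA from 6 ChR2 and 6 wild-type wells was read in pairs of 50 bases after 14 PCR cycles, per the labels' protocols, which describe poly(A) selection and, for low-input samples they do not name, ribodepletion. The authors deposited estimated counts per gene, which need not be whole, and TPM in a matching table. Tools named in the submitters' processing notes were Salmon, STAR, bedtools 2.25.0 and BWA 0.7.12-r1039, and builds were GRCm39, mm10 and hg19. Which role each had was not given in the sources used here. Estimated counts were rounded. Genes were kept by filterByExpr (minimum count 10), libraries scaled by TMM, and the lines compared by edgeR's robust quasi-likelihood test (edgeR 4.0.16, R 4.3.3) with Benjamini-Hochberg adjustment over all tested genes. Intervals are 95%. CPM use the scaled sizes of all 12 libraries.

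Named members were the isoform genes, the Sdh genes, Atpif1, and in each other complex the 2 smallest p in each direction, the 2 most abundant in TPM and those called at 1.5-fold; from other lists, up to 2 called genes in each direction. Members and lists were chosen with earlier results of these data known. Alternatives were other scalings and filters, DESeq2 1.42.0, limma 3.58.1 voom with quality weights, a replicate block, left-out wells, and a per-well lowess offset (span 0.3) on log2 effective length, the count divided by TPM. Same-numbered wells did not vary together. The lowest chi-square per degree of freedom between wells of a line was 5.09, so each library counted once. The code was tested on simulated data. Near-identical copies can share reads; of 15 -ps rows left out, Cox5b-ps held 24.0 and Ndufa12-ps 20.4 CPM in ChR2. Reads were PCR copies and carried no molecular identifier, so detection limits cover counting error only. Figures were drawn with matplotlib 3.10.9.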

Additional observations from a re-analysis of the deposited data

Results flagged for a closer look

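Of 94 groups of 6 wells examined, 6 held a well far from the other 5, where chance flags about 1 in 20. In the list that follows, the number in brackets is the gap to the nearest well as a share of the group's range. Wild-type well 2, the library with the fewest counts, was the distant well in 5 of the 6. Uqcc4, an assembly factor of complex III, stood there at 152 CPM against 40.3 to 48.8 in the other wild-type wells (0.924). Uqcc1 stood at 193 CPM against 80.7 to 118 (0.665), and Ndufv1, the NADH-binding subunit of complex I, at 313 CPM against 113.5 to 178 (0.677). The TPM ratio of Cox7a1 to Cox7a2 was 2.49 there against 0.248 to 0.692 (0.802), and that of Cox8b to Cox8a was 3.34 against 0.526 to 1.16 (0.776). The remaining group was Cox6a1, a common complex IV subunit, in ChR2: well 4 held 136.4 CPM and the other 5 wells 91.3 to 106.2 (0.67).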

How the results depend on the processing

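Uqcc1 was lower and called in all settings run. Members called higher numbered 2 over 12 wells, 1 without wild-type wells 2 and 5, 0 with no filter, 4 with limma voom, and 0 with the length offset over 12 or 10 wells. Members called lower numbered 1, and 2 without wild-type wells 2 and 5, 7 with the length offset and 19 with the offset over 10 wells. Complex I went from 0 calls to 2 (voom), 1 (10 wells), 2 (offset) and 10 (offset, 10 wells). Complex III went from 2 to 1 with no filter, over 10 wells and with the offset. Complex IV went from 1 to 0 (no filter), 2 (offset) and 5 (offset, 10 wells), and complex V from 0 to 2 with the offset over 12 or 10 wells. In the fits over 12 and 10 wells the tested members numbered 47 in complex I, 14 in III, 15 in IV and 17 in V. Of all genes, 28.1% were called over 12 wells, 35.2% over 10 wells, 11.5% with no filter and 41.1% with voom. With the offset the shares of all genes were 30.2% over 12 wells and 39.4% over 10. With each well left out in turn, calls ranged from 0 to 4 higher, 1 to 2 lower, 0 to 3 in complex I, 1 to 2 in complex III, 0 to 2 in complex IV and 0 to 1 in complex V. In these fits 21.3% to 36.4% of all genes were called. Over all genes, voom called 2781 higher against 1838. With the replicate number as a block, 1171 genes were called lower against 1863, and the same 3 members were called; deviations of same-numbered wells correlated between -0.145 and 0.0984, and 1 of 6 ChR2 wells correlated best with its own number, so the numbers were not taken as pairs. With the offset over 12 wells Atp5md turned from 0.20 to -0.42 and was called lower. With the offset over 10 wells Atp5g3 (-0.24), Cox6c (-0.21) and Ndufa4 (-0.34) were called lower; they were above 0 over 12 wells and already below 0 over 10 wells without the offset (-0.12, -0.03 and -0.16). The offset removes a trend that short genes share, and which setting is nearer to the cells was not tested. Of 93 members called over neither 12 nor 10 wells, 36 changed sign over 10 wells and 72 in some setting. A filter of 1 CPM in 6 libraries kept the same number of genes, 13168. The log2 difference in summed levels and isoform ratios moved by less than the SD taken with all 6 wild-type wells, which wells 2 and 5 widen. Against the spread of the deep wells the wild-type mean moved far with these wells for Cox7a1 over Cox7a2 (0.742 against 0.316 ± 0.0618) and Atp5g1 over Atp5g3 (0.558 against 0.341 ± 0.0131). Depth limits low members most: 3 counts were worth 3.93 CPM in wild-type well 2.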
